A study of Rattus norvegicus with 19 samples.

Results

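The mature miRNAs of 4 hairpins that white blood cells express, miR-223, miR-142, miR-150 and miR-342, were followed in rat tail-vein plasma. They were taken by name from the deposited miRNA table, which holds 748 mature miRNAs, and both arms of each hairpin were present, which gave 8 members: rno-miR-223-3p, rno-miR-223-5p, rno-miR-142-3p, rno-miR-142-5p, rno-miR-150-5p, rno-miR-150-3p, rno-miR-342-3p and rno-miR-342-5p. Small RNA was sequenced from 200.0 µL of EDTA plasma per rat, drawn 2 days after injury or surgery, with 1 library per rat. The paper reports that some of the pooled plasma samples were hemolyzed by absorbance and none by a measure on the extracted RNA. The labels do not say which samples these were. The rats were adult male Sprague-Dawley animals. The groups were severe traumatic brain injury (sTBI, 5 rats) and mild traumatic brain injury (mTBI, 5 rats), both made by a lateral fluid-percussion impact through a craniectomy over the left hemisphere, sham-operated controls (sham, 5 rats), and naive rats (4 rats). Sham rats had the same anesthesia and surgery with no impact, and naive rats had a short isoflurane anesthesia and no surgery. Blood was drawn under isoflurane in all groups, so sTBI, mTBI and sham rats shared the surgery and naive rats shared only the anesthesia.

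miR-223 is a miRNA of the myeloid lineage, abundant in neutrophils and monocytes and also in platelets. In mice it holds granulocyte activation in check. miR-150 is abundant in mature B and T lymphocytes and represses the transcription factor Myb in mouse lymphocytes, and miR-342 lies in an intron of Evl and is likewise rich in lymphoid cells. miR-142 is made throughout the haematopoietic lineage, so it marks blood cells as a whole, platelets included. In plasma these miRNAs circulate outside cells or in remaining platelets and cell fragments, and their names give the cells in which they are abundant, not the cells that released them in these rats.

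The sequences below, from RefSeq on the rat build GRCr8, show how the arms differ and which target seed each carries. They matched 6 of the 8 members, and the capitals mark the seed, bases 2 to 8 from the 5′ end.
rno-miR-223-3p: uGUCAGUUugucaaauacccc
rno-miR-223-5p: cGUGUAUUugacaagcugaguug
rno-miR-142-3p: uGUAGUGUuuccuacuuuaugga
rno-miR-142-5p: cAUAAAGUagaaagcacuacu
rno-miR-342-3p: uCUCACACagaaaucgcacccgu
rno-miR-342-5p: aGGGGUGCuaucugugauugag
The 6 seeds differ from each other, and no other of the 693 mature rat miRNAs in that table shares any of them. The miR-223 arms are at chrX:65151450-65151470 (3p) and chrX:65151408-65151430 (5p), in a lncRNA gene. The miR-142 arms are at chr10:73055155-73055177 (3p) and chr10:73055119-73055139 (5p), within the protein-coding gene Tspoap1. The miR-342 arms are at chr6:133329715-133329737 (3p) and chr6:133329673-133329694 (5p), within Evl and a lncRNA gene. All 3 hairpins lie on the plus strand, and Mir150 is on chromosome 1 with no gene annotated across it. For miR-142, the hairpin whose minor arm was the most abundant of the 4, the whole precursor at chr10:73055104-73055190 is given, with the 5p arm and then the 3p arm in capitals.
Mir142 hairpin: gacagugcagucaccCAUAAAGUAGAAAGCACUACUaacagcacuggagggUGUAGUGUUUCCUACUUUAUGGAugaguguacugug

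The libraries held 16241433 to 21517763 reads and 2409545 to 5866757 miRNA molecules counted by unique molecular index (UMI), and levels are given as CPM, UMIs per 1000000 miRNA UMIs. Libraries naive 1, naive 3, mTBI 2 and mTBI 5, set apart from the rest in earlier results of these data, had 12.6 to 16.8 miRNA UMIs per spike-in UMI against 5.53 to 9.37 in the other 15, and they are given with and without below. Their TMM factors, which scale each library in the test, were 0.680 to 0.792, against 0.967 to 1.30 in the others, so a miRNA stands higher in these 4 libraries on the scale of the test than in CPM. The cause of their difference was not tested.

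All 8 members were counted in every library and passed the filter on low counts, as 713 of the 748 miRNAs did. miR-223-3p and miR-150-5p averaged 37391 CPM and 33928 CPM, ranks 6 and 7 of 748, followed by miR-342-3p with 13959 CPM (rank 15) and miR-142-3p with 10572 CPM (rank 21). The minor arms were far lower, with miR-142-5p at 461 CPM, miR-150-3p at 235 CPM, miR-223-5p at 220 CPM and miR-342-5p at 12.3 CPM. miR-342-5p was the one member whose counts were small, with 19 UMIs in naive 3 (95% Poisson interval 11.4 to 29.7) and 65 UMIs in sTBI 2 (50.2 to 82.8), intervals that cover counting error only. Together the 8 members made 10.4 ± 0.799% of miRNA UMIs in sTBI rats, 9.17 ± 2.72% in mTBI rats, 10.5 ± 2.22% in sham rats (SD, n = 5 each) and 8.45 ± 3.79% in naive rats (SD, n = 4). The lowest share was 5.19% in naive 1 and the highest 13.6% in sham 5. In plasma, fewer cells of a type and less RNA released per cell cannot be told apart.

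**Figure D1:**
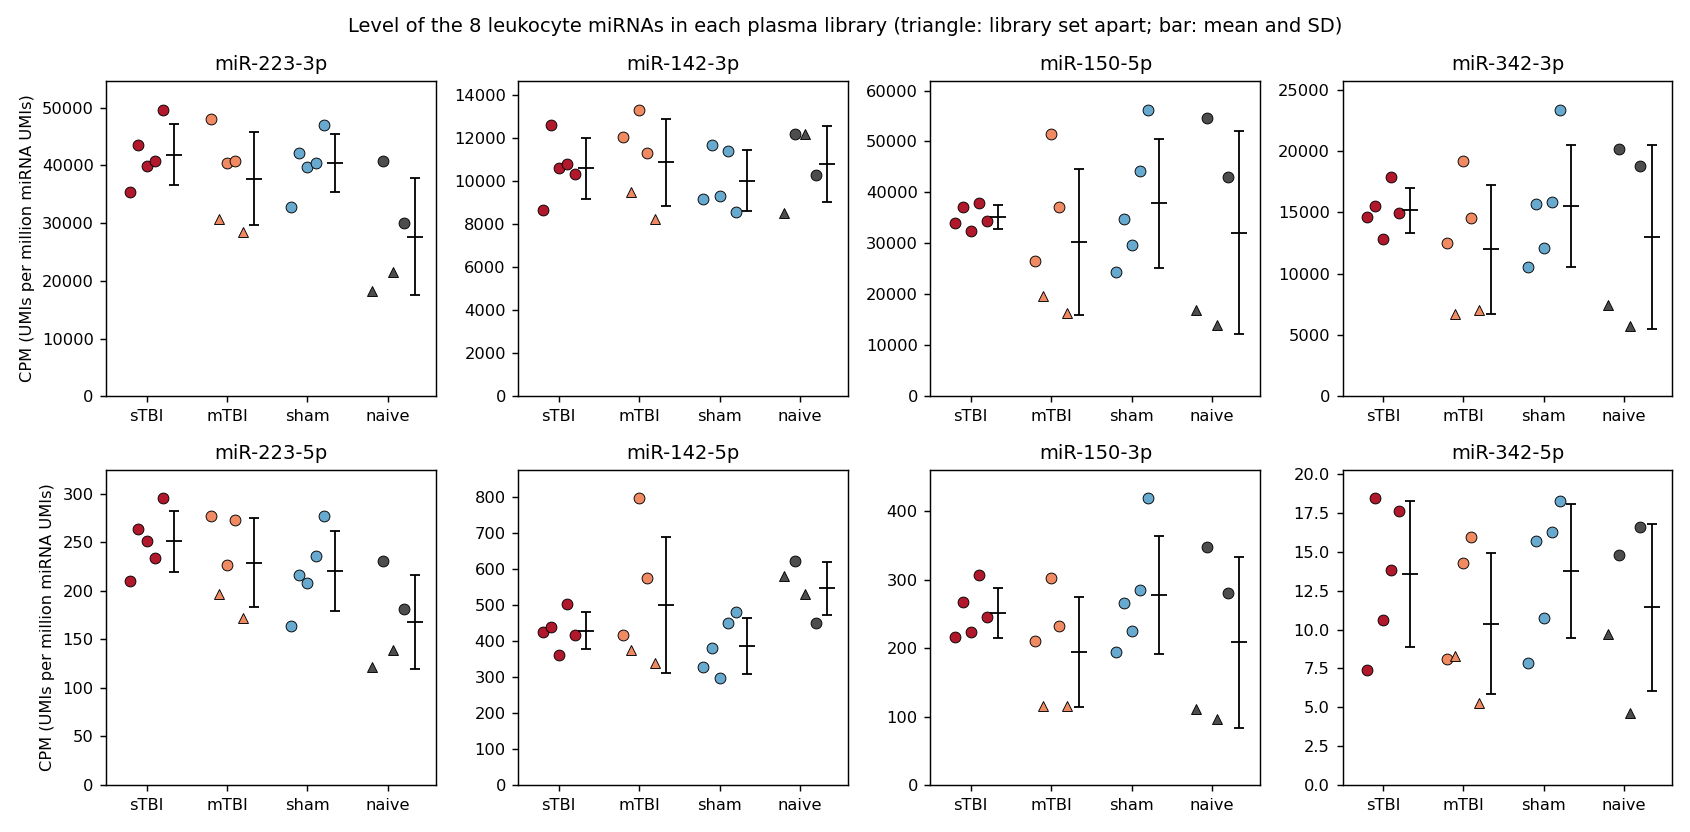
Each panel plots 1 member, with CPM on the vertical axis and sTBI, mTBI, sham and naive rats from left to right. Points are single libraries, triangles the 4 libraries set apart, and bars the mean with 1 SD. The ranges of every pair of groups overlapped for all 8 members, and the triangles were the lowest points of their groups for miR-150-5p and miR-342-3p.

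No member passed the test in any of the 6 comparisons between groups (edgeR quasi-likelihood test, Benjamini-Hochberg adjusted over 713 miRNAs). Over all miRNAs tested, edgeR called 4.91% between sTBI and naive rats, 2.1% between sTBI and sham rats, 3.23% between sTBI and mTBI rats, 2.38% between mTBI and naive rats, 0.14% between mTBI and sham rats and 2.38% between sham and naive rats. Without adjustment, the number of the 8 members with edgeR p under 0.05 was 1 for sTBI and naive rats (23.6% of all miRNAs), 0 for sTBI and sham rats (7.57%), 1 for sTBI and mTBI rats (17.4%), 2 for mTBI and naive rats (7.15%), 1 for mTBI and sham rats (11.4%) and 1 for sham and naive rats (19.6%). DESeq2, the second tool, called miR-142-5p between sTBI and naive rats (9.54% of all miRNAs called) and between sham and naive rats (6.03%), and 0 members in the other 4 comparisons (2.81% for sTBI and sham, 4.63% for sTBI and mTBI, 2.38% for mTBI and naive, 0.701% for mTBI and sham). In CPM the ranges of the 2 groups overlapped for all 8 members in each comparison, while they were apart for 10.1% of all miRNAs between sTBI and naive rats, 2.95% between sTBI and sham rats, 7.57% between sTBI and mTBI rats, 2.24% between mTBI and naive rats, 2.52% between mTBI and sham rats and 6.31% between sham and naive rats. In TMM-scaled CPM they were apart for 1 member between sTBI and naive rats (9.26% of all miRNAs), 2 between mTBI and naive rats (4.91%) and 1 between sham and naive rats (6.31%), and for 0 between sTBI and sham rats (3.23%), sTBI and mTBI rats (7.01%) and mTBI and sham rats (2.24%). The 2 members counted for mTBI and naive rats, without adjustment and in TMM-scaled CPM, were the 2 arms of miR-223. The comparisons share groups, so they do not repeat one another. The median log2 fold change of the 8 members lay between −0.07 and 0.07 in all 6 comparisons, beside medians of −0.05 to 0.04 over all miRNAs. The median size of the members' changes was 0.09 to 0.24 on the log2 scale, against 0.15 to 0.36 over all miRNAs. The main arms ranked 6 to 21 of 748 by level, and the sizes were not compared at matched levels.

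**Figure D2:**
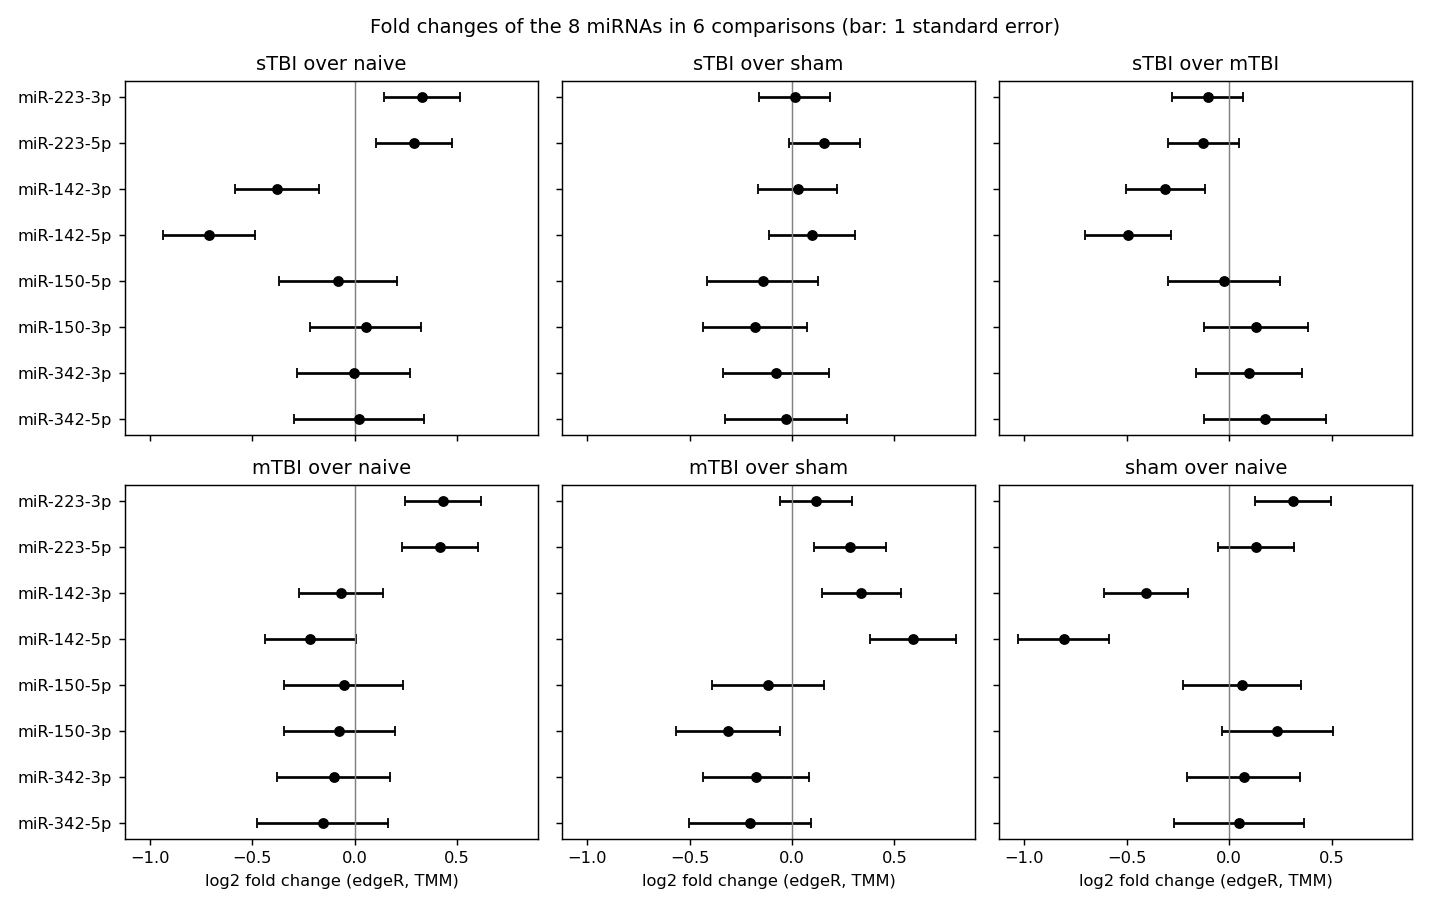
Each panel is 1 comparison, with the log2 fold change of each member on the horizontal axis (first group over the second, from the edgeR fit with TMM factors) and bars of 1 standard error. The miR-150 and miR-342 arms lay between −0.31 and 0.24 everywhere, and the miR-142-5p values against naive rats were −0.71 for sTBI and −0.81 for sham.

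miR-223-3p, the leading myeloid member, was lower in naive rats than in the 3 operated groups by mean, with ranges that overlapped. It stood at 35444, 43567, 39878, 40697 and 49650.2 CPM in the sTBI rats. The mTBI rats had 48092, 30772, 40412, 40697 and 28516 CPM, and the sham rats 32863, 42093, 39641, 40418 and 47037 CPM. The naive rats had 18316, 40795, 21444 and 30095 CPM, and naive 1 and naive 3 were the lowest libraries of all, while naive 2 lay among the operated rats. The means were 41847 ± 5245 CPM in sTBI rats, 37698 ± 8011 in mTBI rats, 40411 ± 5106 in sham rats and 27663 ± 10073 in naive rats (SD, n = 5, 5, 5 and 4, as for all group means below). No pair of neighbours in the order sTBI, sham, mTBI and naive had ranges apart. On the scale of the test the difference was greatest for mTBI over naive rats, with a log2 fold change of 0.43 ± 0.19 (SE, edgeR adjusted p = 0.573). It was 0.33 ± 0.19 for sTBI over naive rats (edgeR adjusted p = 0.283), 0.31 ± 0.19 for sham over naive rats (edgeR adjusted p = 0.363) and 0.01 ± 0.17 for sTBI over sham rats (edgeR adjusted p = 0.995). Without the 4 libraries set apart, which leaves 2 naive and 3 mTBI rats, the value for mTBI over naive rats was 0.28 (edgeR adjusted p = 0.912).

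Its partner arm miR-223-5p followed it at a far lower level. It had 210.4, 264, 251, 234 and 295 CPM in the sTBI rats, 277, 197, 226, 273 and 172 in the mTBI rats, 164, 217, 208, 236 and 277 in the sham rats and 122, 231, 139.6 and 181 in the naive rats. Naive 1 and naive 3 were again lowest, and every pair of groups overlapped. The log2 fold change was 0.42 ± 0.19 for mTBI over naive rats (edgeR adjusted p = 0.576) and 0.29 ± 0.19 for sTBI over naive rats (edgeR adjusted p = 0.335). In TMM-scaled CPM, both miR-223 arms were higher in all 5 mTBI rats than in all 4 naive rats, with 38859 to 42568 against 23180.2 to 36654 for miR-223-3p and 228 to 262 against 154 to 207 for miR-223-5p. Over all miRNAs, 4.91% had ranges apart in that comparison and scale. The 2 members are arms of 1 hairpin that moved together, so they are not 2 separate observations. Relative to the spike-in, miR-223-3p stood at 278 ± 48.4 UMIs per 1000 spike-in UMIs in sTBI rats, 381 ± 82.8 in mTBI rats, 309 ± 37.0 in sham rats and 261 ± 46.3 in naive rats (SD), an order that differs from that in CPM.

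miR-142-3p, the main arm of the pan-haematopoietic hairpin, varied least of the members in CPM, though not on the scale of the test, with a coefficient of variation of 14.8% in CPM over the 19 libraries against a median of 32.6% over the 610 miRNAs counted in every library. It had 8652, 12618, 10598, 10819.6 and 10351 CPM in the sTBI rats. The mTBI rats had 12050.0, 9501, 13334, 11310.5 and 8249 CPM, the sham rats 9177, 11707, 9306, 11412 and 8561 CPM and the naive rats 8526, 12183, 12219 and 10292 CPM. The group means, 10608 ± 1412 in sTBI rats, 10889 ± 2025 in mTBI rats, 10033 ± 1426 in sham rats and 10805 ± 1766 in naive rats (SD), lay within 1 SD of each other. After TMM scaling its coefficient of variation was 21.9%, above the 17.1% of miR-223-3p and the 17.7% of miR-223-5p, and the log2 fold change was −0.38 ± 0.20 for sTBI over naive rats (SE, edgeR adjusted p = 0.255) and −0.41 ± 0.20 for sham over naive rats (edgeR adjusted p = 0.264).

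miR-142-5p came nearest to the threshold of the 8 members. It had 426, 439, 361, 503 and 417 CPM in the sTBI rats and 417, 374, 796, 575 and 339 CPM in the mTBI rats. The sham rats had 327, 381, 298, 451 and 480.2 CPM and the naive rats 580.4, 622, 531 and 451 CPM. Naive rats were high as a group, naive 4 lay within the sTBI and sham ranges, and mTBI 3 was the highest library of all. In TMM-scaled CPM the sTBI rats (323 to 432) and the sham rats (287 to 411) were all below the naive rats (445 to 768). Ranges were apart on this scale for 9.26% of all miRNAs between sTBI and naive rats and for 6.31% between sham and naive rats. The log2 fold change was −0.71 ± 0.22 for sTBI over naive rats (SE, edgeR adjusted p = 0.072) and −0.81 ± 0.22 for sham over naive rats (edgeR adjusted p = 0.0542), and neither passed. DESeq2 gave −0.74 (DESeq2 adjusted p = 0.015) and −0.85 (DESeq2 adjusted p = 0.00487), both past it. So were the edgeR values without naive 4, −0.84 for sTBI over naive rats (edgeR adjusted p = 0.0295) and −0.94 for sham over naive rats (edgeR adjusted p = 0.0321). With each library left out in turn, the value was −0.84 to −0.60 for sTBI over naive rats (edgeR adjusted p = 0.0295 to 0.263). It was −0.94 to −0.70 for sham over naive rats (edgeR adjusted p = 0.0321 to 0.265). Without the 4 libraries set apart the values were −0.44 (edgeR adjusted p = 0.687) and −0.54 (edgeR adjusted p = 0.682), and by total miRNA UMIs alone they were −0.35 and −0.50 (edgeR adjusted p = 0.379 and 0.276). Over all alternatives they ran from −1.01 to −0.35 for sTBI over naive and from −0.96 to −0.50 for sham over naive rats. Per 1000 spike-in UMIs the means were 2.82 UMIs in sTBI, 2.93 in sham and 5.69 in naive rats.

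**Figure D3:**
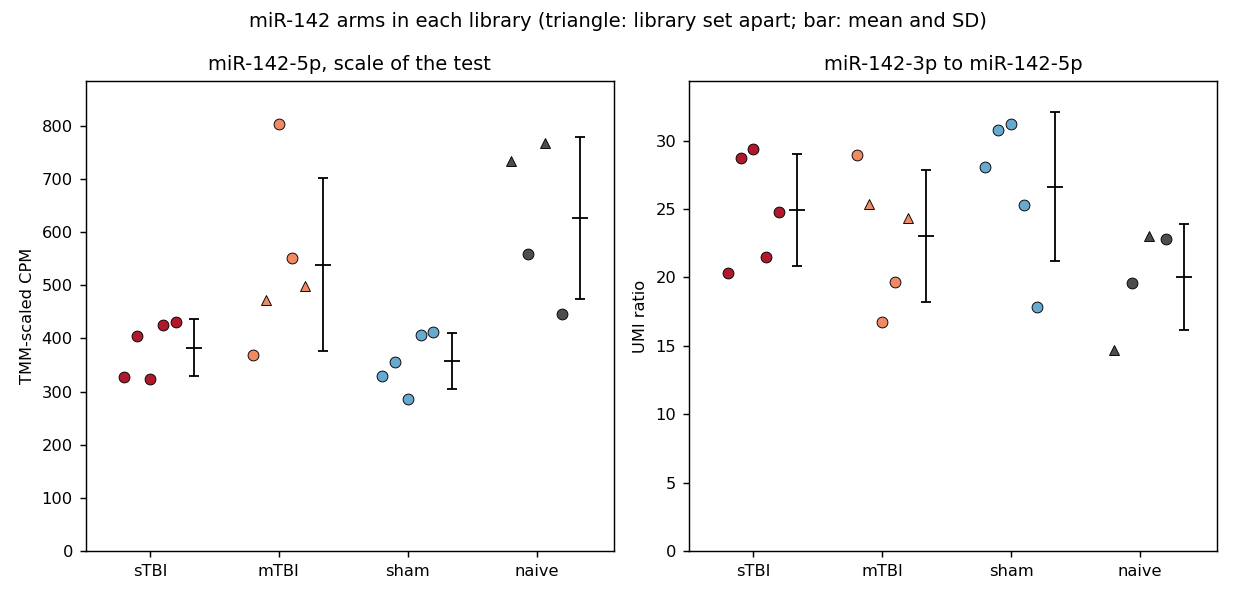
On the left, miR-142-5p in TMM-scaled CPM, and on the right the UMI ratio of miR-142-3p to miR-142-5p, for sTBI, mTBI, sham and naive rats from left to right. Points are libraries, triangles the 4 libraries set apart, bars the mean with 1 SD. The naive rats lie between 445 and 768 TMM-scaled CPM, above all sTBI and sham rats, and their arm ratios overlap those of every other group.

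The mTBI rats spanned these groups for miR-142-5p, with 369, 472, 804, 552 and 498 TMM-scaled CPM, so that mTBI 3 stood above every naive rat and mTBI 1 within the sTBI and sham ranges. The log2 fold change was 0.59 ± 0.21 for mTBI over sham rats (SE, edgeR adjusted p = 0.366), −0.49 ± 0.21 for sTBI over mTBI rats (edgeR adjusted p = 0.281) and 0.10 ± 0.21 for sTBI over sham rats (edgeR adjusted p = 0.995). Platelets also hold miR-142 and miR-223, and miR-223-3p changed the other way, by 0.33 for sTBI over naive and 0.31 for sham over naive rats. A list of 8 other platelet miRNAs had median log2 fold changes of −0.52 for sTBI over naive, −0.50 for sham over naive and 0.45 for mTBI over sham rats. The medians were −0.53 for sTBI over mTBI, −0.12 for mTBI over naive and −0.05 for sTBI over sham rats. Their sign was that of miR-142-5p except for sTBI over sham rats. In this list, 0 of 8 were called in any comparison by edgeR or DESeq2. At an unadjusted edgeR p under 0.05 there were 4 of the 8 for sTBI and naive rats (23.6% of all miRNAs), 2 for sham and naive rats (19.6%), 2 for sTBI and mTBI rats (17.4%), 2 for mTBI and sham rats (11.4%) and 0 in the other 2 comparisons. Its summed level was 32089.6 to 53001 CPM in sTBI rats, 37767 to 67717 CPM in mTBI rats, 33863 to 53796 CPM in sham rats and 38903 to 61218 CPM in naive rats, and no platelet miRNA was at 0. For sTBI over naive, sham over naive and mTBI over sham rats, the median log2 fold changes over all miRNAs were 0.03, 0.04 and 0.02. In that order, 4 liver miRNAs had medians of −1.07, −0.66 and 0.34. For 14 lymphoid and haematopoietic miRNAs they were −0.46, −0.35 and 0.12, and for 10 myeloid and inflammatory miRNAs −0.08, −0.12 and 0.18. They were −0.17, 0.02 and 0.12 for 9 erythrocyte miRNAs and 1.00, 1.77 and 0.36 for 5 muscle miRNAs. The part of platelets in the miR-142-5p values was not tested.

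miR-150-5p, the leading lymphoid member, varied least among the sTBI rats and most among the naive rats. It had 34019.7, 37106, 32416, 37996 and 34340.4 CPM in the sTBI rats and 26604, 19725, 51523, 37090.5 and 16243 CPM in the mTBI rats. The sham rats had 24333, 34842, 29673, 44129 and 56244 CPM and the naive rats 16860.2, 54569.9, 13936 and 42975 CPM. The 4 libraries set apart were the 4 lowest of the 19, at 13936 to 19725 CPM against 24333 to 56244 CPM in the other 15, and all groups overlapped. Relative to the spike-in the same 4 libraries had 205 to 332 UMIs per 1000 spike-in UMIs, within the 203 to 471 of the others. The group means were 35176 ± 2309 CPM in sTBI rats, 30237 ± 14315 in mTBI rats, 37844 ± 12614 in sham rats and 32085 ± 19877 in naive rats (SD). The log2 fold changes of the 6 comparisons ran between −0.14 for sTBI over sham rats and 0.06 for sham over naive rats, each smaller than its SE of 0.27 to 0.29 (edgeR adjusted p = 0.836 to 0.995). miR-150-3p, the minor arm, had 216 to 307 CPM in sTBI rats, 115 to 303 in mTBI rats, 195 to 419 in sham rats and 96.3 to 348 in naive rats. Its log2 fold change was furthest from 0 for mTBI over sham rats, at −0.31 ± 0.26 (SE, edgeR adjusted p = 0.565).

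miR-342-3p, the other lymphoid miRNA, had the same profile at a lower level. It had 14581, 15480.0, 12851, 17866 and 14917 CPM in the sTBI rats and 12495, 6721, 19171, 14514 and 7006 CPM in the mTBI rats. The sham rats had 10560.0, 15682, 12113, 15856 and 23356 CPM and the naive rats 7399, 20173, 5717 and 18757 CPM. Sham 5 was highest, as for miR-150-5p, the 4 libraries set apart were lowest, and all groups overlapped. Its log2 fold changes ran between −0.17 for mTBI over sham rats and 0.10 for sTBI over mTBI rats, each smaller than its SE of 0.26 to 0.27 (edgeR adjusted p = 0.739 to 0.997). miR-342-5p had 7.36 to 18.4 CPM in sTBI rats, 5.28 to 15.9 in mTBI rats, 7.83 to 18.3 in sham rats and 4.65 to 16.6 in naive rats, with log2 fold changes of −0.21 to 0.18 and SEs of 0.30 to 0.32.

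The myeloid to lymphoid balance was read as the UMI ratio of miR-223-3p to miR-150-5p within a library, which does not depend on how libraries are scaled. The ratios were 1.04, 1.17, 1.23, 1.07 and 1.45 in the sTBI rats and 1.81, 1.56, 0.784, 1.1 and 1.76 in the mTBI rats. The sham rats had 1.35, 1.21, 1.34, 0.916 and 0.836 and the naive rats 1.09, 0.748, 1.54 and 0.7. The mTBI rats held both the highest ratio of all and 1 of the lowest, and every pair of groups overlapped. The means were 1.19 ± 0.161 in sTBI rats, 1.4 ± 0.444 in mTBI rats, 1.13 ± 0.239 in sham rats and 1.02 ± 0.387 in naive rats (SD). With miR-342-3p as the lymphoid partner they were 2.79 ± 0.442, 3.48 ± 1.00, 2.73 ± 0.497 and 2.46 ± 0.929 for sTBI, mTBI, sham and naive rats. The largest difference was that of mTBI over naive rats, 0.52 ± 0.33 (SE) in mean log2 ratio to miR-342-3p (exact two-sided permutation p = 0.143, adjusted 0.590 over 12 tests). Over the 12 tests the exact permutation p was 0.143 to 0.810 and the adjusted p 0.590 to 0.810, and the design was too small for 1 comparison to pass by itself. The smallest exact p is 0.00794 for 5 against 5 rats and 0.0159 for 5 against 4 rats, which is 0.0952 and 0.190 after adjustment over 12 tests when 1 comparison alone has separate groups. Leaving out 1 library at a time moved the mTBI over naive value to between 0.34 (without naive 4) and 0.74 (without naive 3).

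**Figure D4:**
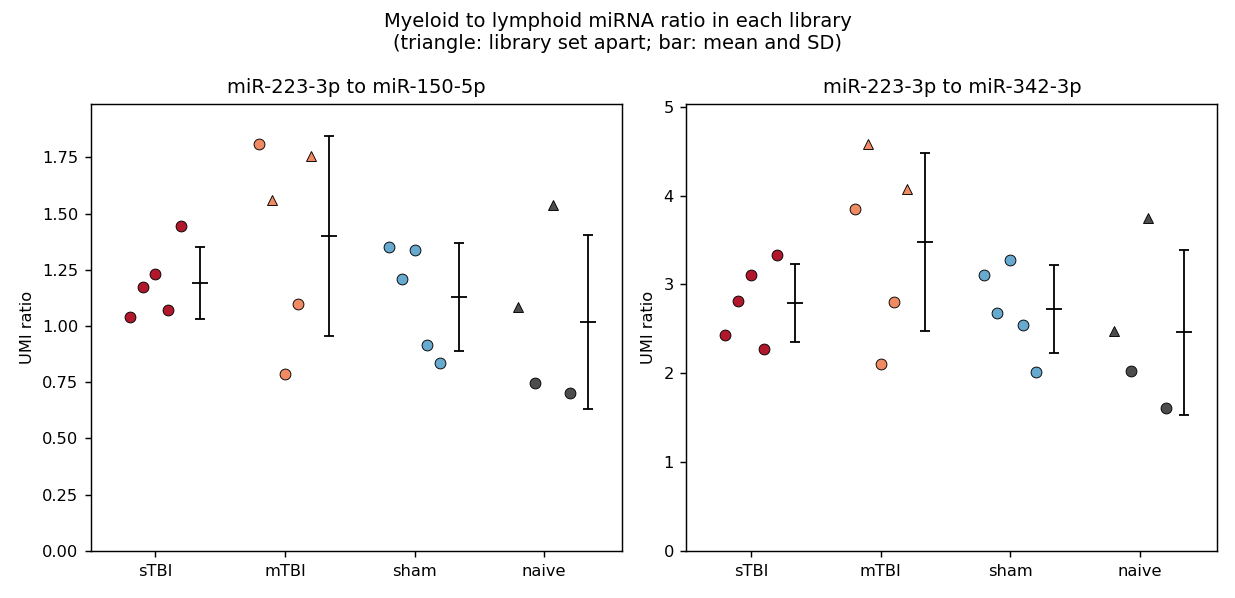
UMI ratio of miR-223-3p to miR-150-5p (left) and to miR-342-3p (right) for sTBI, mTBI, sham and naive rats from left to right. Points are libraries, triangles the 4 libraries set apart, bars the mean with 1 SD. All groups overlap in both panels, and the 2 naive rats that were not set apart are the 2 lowest naive points, at 0.7 and 0.748 on the left.

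The naive libraries set apart had the higher ratios of their group, 1.09 in naive 1 and 1.54 in naive 3, beside 0.748 in naive 2 and 0.7 in naive 4. Without the 4 libraries, the ratio to miR-150-5p was 1.04 to 1.45 in 5 sTBI rats, 0.784 to 1.81 in 3 mTBI rats and 0.836 to 1.35 in 5 sham rats, all above the 0.7 and 0.748 of the 2 naive rats. The ratio to miR-342-3p was then 2.28 to 3.33 in sTBI rats, 2.11 to 3.85 in mTBI rats and 2.01 to 3.27 in sham rats, against 1.60 and 2.02 in naive rats, so the sham rats overlapped the naive ones there. The mean log2 ratio to miR-150-5p was then 0.71 higher in sTBI, 0.68 higher in mTBI and 0.61 higher in sham than in naive rats, in place of 0.29, 0.47 and 0.20 with all libraries, and the ratio to miR-342-3p was 0.65 higher in mTBI than in naive rats. With 2 naive rats an exact permutation test of 5 against 2 cannot go below p = 0.0952, so it cannot pass.

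The arms of each hairpin stood in unequal shares. Differences of the arm ratios between groups are given as values, since 1 ratio with fully separate groups would reach only 0.190 (5 against 5 rats) or 0.381 (5 against 4 rats) after adjustment over 24 exact permutation tests. The 3p arm made 99.4% of miR-223 UMIs, 95.8 ± 0.907% of miR-142 UMIs, 0.691 ± 0.0680% of miR-150 UMIs and 99.9% of miR-342 UMIs (mean, SD over 19 libraries). The miR-142 3p to 5p ratio was 20.3 to 29.4 in sTBI rats, 16.7 to 28.9 in mTBI rats, 17.8 to 31.2 in sham rats and 14.7 to 23.0 in naive rats, with overlap between all groups. Its mean log2 ratio was 0.41 ± 0.21 (SE) higher in sham than in naive rats (exact permutation p = 0.0952, adjusted 0.381), and between 0.26 (without naive 1) and 0.54 (without sham 5) with 1 library left out. The smallest of the 24 exact permutation p-values was 0.0397, for the miR-223 arms, whose 3p to 5p ratio was 159 to 174 in sTBI rats and 169.9 to 201 in sham rats, a difference of −0.15 ± 0.05 in mean log2 ratio (adjusted p = 0.381).

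The 2 lymphoid miRNAs moved together from library to library, and the relation of miR-223-3p with them rested on the libraries set apart. Those 4 libraries were the lowest for miR-150-5p and miR-342-3p, so relations were read within the other 15. For miR-142-3p they were not apart, with 8249 to 12219 CPM against 8561 to 13334 CPM in the others. There, miR-150-5p and miR-342-3p had a Pearson r of 0.95 and a Spearman rho of 0.96 on log2 CPM (permutation p = 1e-05 for both, the smallest that 100000 resamples can give, adjusted 5e-05 over 10 pairs), and r was 0.91 without sham 1 and sham 5, the libraries farthest from the median. miR-223-3p had an r of 0.11 and a rho of 0.19 with miR-150-5p (permutation p = 0.689 and 0.487, adjusted the same) and an r of 0.15 and a rho of 0.23 with miR-342-3p (permutation p = 0.603 and 0.41, adjusted 0.67 and 0.456). Without naive 4 and sham 1 these r were −0.03 and 0.12. miR-142-3p had an r of 0.28 with miR-223-3p, 0.23 with miR-150-5p and 0.16 with miR-342-3p (adjusted permutation p = 0.528, 0.587 and 0.67), and the rho were 0.36, 0.27 and 0.23 (adjusted permutation p = 0.305, 0.456 and 0.456). Arms of 1 hairpin were related for miR-223 (r = 0.89, adjusted permutation p = 6.67e-05), miR-150 (r = 0.92, adjusted 5e-05) and miR-342 (r = 0.68, adjusted 0.0136), while the miR-142 arms had an r of 0.55 (adjusted 0.0646). The rho of these arm pairs were 0.83, 0.95, 0.56 and 0.39 for miR-223, miR-150, miR-342 and miR-142, of which the miR-342 and miR-142 pairs did not pass (adjusted permutation p = 0.0758 and 0.305). Without the 2 libraries farthest from the median, r was 0.12 for miR-142-3p with miR-223-3p, 0.44 with miR-150-5p and 0.59 with miR-342-3p, and 0.80, 0.88, 0.54 and 0.74 for the arms of miR-223, miR-150, miR-342 and miR-142. CPM values share 1 total per library, and these correlations are across rats of all groups.

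**Figure D5:**
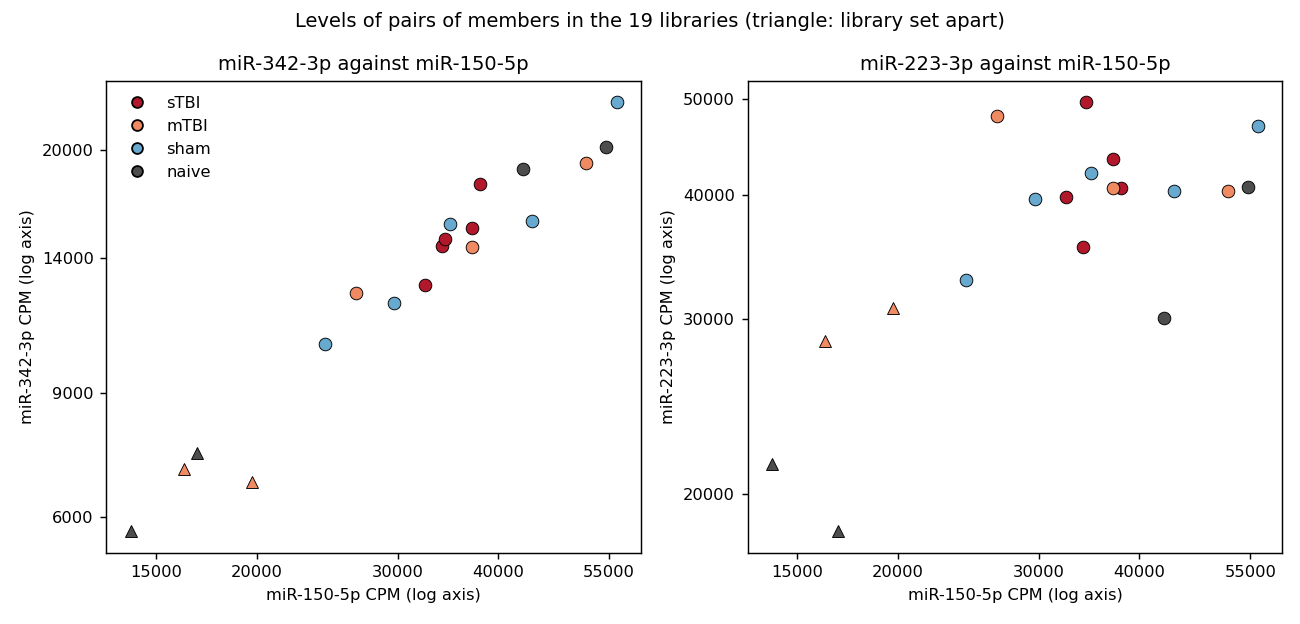
CPM of miR-342-3p (left) and miR-223-3p (right) against miR-150-5p in the 19 libraries, on log axes, coloured by sTBI, mTBI, sham and naive, with triangles for the 4 libraries set apart. The 15 other libraries follow a line on the left (r = 0.95) and form a cloud on the right (r = 0.11).

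Among 166 other miRNAs with a mean of at least 100 CPM, the patterns closest to the members were named by Spearman rho of TMM-scaled CPM over 19 libraries. miR-150-5p and miR-342-3p had the same 3 neighbours, miR-139-3p (rho 0.88 with miR-150-5p and 0.85 with miR-342-3p), miR-874-3p (0.83 and 0.84) and miR-423-5p (0.81 and 0.84). Those of miR-223-3p were miR-3571 (0.75) and the muscle miRNAs miR-1-3p (0.74) and miR-133a-3p/133b-3p (0.73), and over the 15 libraries these values were 0.64, 0.64 and 0.60. Those of miR-142-3p were miR-7a-5p (0.84), miR-15b-5p (0.83) and let-7g-5p (0.81), and over the 15 libraries 0.80, 0.91 and 0.72. For miR-139-3p, miR-874-3p and miR-423-5p the values over the 15 libraries were 0.84, 0.70 and 0.81 with miR-150-5p. With miR-342-3p they were 0.84, 0.76 and 0.84. The median rho of the 166 miRNAs over 19 libraries was −0.02 with miR-223-3p, −0.33 with miR-150-5p, 0.25 with miR-142-3p and −0.41 with miR-342-3p. The muscle miRNA miR-133a-3p/133b-3p was higher in sTBI than in naive rats (log2 fold change 1.36 ± 0.38, SE, edgeR adjusted p = 0.0426), in mTBI than in naive rats (2.83 ± 0.40, edgeR adjusted p = 0.000112) and in sham than in naive rats (2.47 ± 0.40, edgeR adjusted p = 0.0011). It was lower in sTBI than in mTBI rats (−1.47 ± 0.35, edgeR adjusted p = 0.0191). miR-1-3p was higher in mTBI than in naive rats (2.14 ± 0.41, edgeR adjusted p = 0.00299) and in sham than in naive rats (1.77 ± 0.40, edgeR adjusted p = 0.0159), and miR-206-3p likewise (2.34 ± 0.47, edgeR adjusted p = 0.00617, and 2.73 ± 0.48, edgeR adjusted p = 0.00165). Of the 5 muscle miRNAs tested, edgeR called 1 higher for sTBI over naive rats (4.91% of all miRNAs called). It called 3 higher for mTBI over naive and 3 for sham over naive rats (2.38% each), and 1 lower for sTBI over mTBI rats (3.23%). The log2 fold changes of the 5 were −1.25 to 1.36 for sTBI over naive rats (median 1.00). They were −0.36 to 2.83 for mTBI over naive rats (median 2.14) and −0.99 to 2.73 for sham over naive rats (median 1.77). The list of 5 muscle miRNAs summed to 1808 to 2333 CPM in sTBI rats, 2625 to 6313 CPM in mTBI rats, 2344 to 10050.0 CPM in sham rats and 367 to 1366 CPM in naive rats, and its part in the miR-223-3p values was not tested.

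Among other miRNAs of white blood cells, edgeR called 1, for sTBI and naive rats, where it called 4.91% of all miRNAs. Of 10 tested myeloid and inflammatory miRNAs (miR-146a, miR-146b, miR-155, miR-147, miR-21 and miR-652 arms), edgeR called 0 in all 6 comparisons, with 3 at an unadjusted p under 0.05 for sTBI and naive rats (23.6% of all miRNAs), 2 for sham and naive rats (19.6%) and 0 or 1 in the other 4 (7.15% to 17.4%), and DESeq2 called 1 for sTBI and naive rats (9.54%), 1 for sham and naive rats (6.03%) and 0 otherwise. Their median log2 fold change was −0.24 to 0.18. Of 14 lymphoid and haematopoietic miRNAs (miR-181, miR-191a and miR-425 arms), edgeR called 1 in 1 comparison, miR-181b-1-3p. It was lower in sTBI than in naive rats (log2 fold change −1.04 ± 0.27, SE, edgeR adjusted p = 0.0272), where 4.91% of all miRNAs were called. At an unadjusted edgeR p under 0.05 there were 7 of the 14 for sTBI and naive rats (23.6% of all miRNAs). There were 5 for sham and naive rats (19.6%) and 1 for mTBI and naive rats (7.15%). The number was 0 for sTBI and sham rats (7.57%), sTBI and mTBI rats (17.4%) and mTBI and sham rats (11.4%). DESeq2 called 2 of the 14 for sTBI and naive rats (9.54%), 1 for sham and naive rats (6.03%) and 0 otherwise. The median of these 14 was −0.46 for sTBI over naive rats and −0.35 for sham over naive rats, beside 0.03 and 0.04 over all miRNAs. The erythrocyte list had 0 of 9 called and the liver list 0 of 4 in every comparison by edgeR and by DESeq2. At an unadjusted edgeR p under 0.05 there was 1 erythrocyte miRNA, for sTBI and mTBI rats (17.4% of all miRNAs). Of the 4 liver miRNAs there were 2 for sTBI and naive rats (23.6%) and 2 for sham and naive rats (19.6%). The median log2 fold changes of the liver list in these comparisons were −1.07 and −0.66. The erythrocyte sum was 222189 to 384067 CPM in sTBI rats, 181845 to 376792 CPM in mTBI rats, 252526 to 398868 CPM in sham rats and 178499.7 to 382303 CPM in naive rats.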

How the data were processed

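Plasma small RNA of 19 rats was sequenced with the QIASeq miRNA library kit. As deposited by the authors, the tables give raw read counts and raw UMI counts for each feature, not normalized, from the GeneGlobe portal. The submitters' processing notes name cutadapt, Bowtie and the build Rnor_6.0. Samples were grouped by their labels. UMI counts of mature miRNAs were used, since read counts include PCR copies (1.19 to 2.24 reads per UMI). The rows of Piwi-interacting RNAs, tRNAs and other RNAs were left out.

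The counts were fitted for all groups together with edgeR 4.0.16 in R 4.3.3 (TMM factors, filterByExpr with a minimum count of 10, robust quasi-likelihood fit, 15 residual degrees of freedom, Benjamini-Hochberg adjustment over 713 miRNAs per comparison, threshold 0.05). DESeq2 1.42.0 was the second tool, and the standard error is the size of the log2 fold change divided by the square root of F. Ratios within a library were tested with exact two-sided permutation tests, and correlations of log2(CPM + 1) with 100000 permutations (scipy 1.17.1). The fit and tests were tested on simulated data. Every member was named in every comparison. From the other lists, those past the threshold were named, up to 4 a list by smallest p, and for each main arm the 3 miRNAs with the highest Spearman rho. The members and the lists were chosen with earlier results of these data known, the lists from general knowledge of where a miRNA is abundant. Alternatives were read counts, no filter, RLE factors, total miRNA UMIs, spike-in totals, fits of 2 groups, the replicate number as a block, both arms summed, each library left out, and the 4 libraries set apart left out. Leaving out each library for the arm ratios was chosen after seeing the data.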

Additional observations from a re-analysis of the deposited data

How the results depend on the processing

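The count of members called was 0 in all 6 comparisons and stayed at 0 in 4 of them under every alternative run. For sTBI and naive rats it was 1 with DESeq2, and for sham and naive rats 1 with DESeq2 and 1 with RLE factors. Leaving out 1 library at a time gave 0 to 1 in both, and 1 came without naive 4. In each case the member was miR-142-5p. Of 888 alternative log2 fold changes of members, 883 stayed on their side of the threshold. 98 had the opposite sign, from 29 of 48 values, none of which passed the test in either fit, and the largest of these was 0.24 in size. The myeloid to lymphoid ratios changed sign in 5 of 150 alternatives and the arm ratios in 34 of 276. Their adjusted exact permutation p could hardly pass in groups of this size, so it says nothing of their stability. Over all 19 libraries, r was 0.73 between miR-223-3p and miR-150-5p and 0.74 between miR-223-3p and miR-342-3p. These were 0.11 and 0.15 without the 4 libraries set apart and 0.35 and 0.33 on TMM-scaled CPM, no longer past the threshold. The miR-142 arms had an r of 0.49 over 19 libraries and 0.69 on TMM-scaled CPM, past the threshold there. For miR-150-5p and miR-342-3p it was 0.98 over 19 libraries and 0.95 on TMM-scaled CPM. The cause of these changes was not tested.

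Total miRNA UMIs in place of TMM moved the median log2 fold change of all miRNAs by −0.22 to 0.33, and spike-in totals by −0.30 to 0.15, so the sign of small changes of the members depends on the scaling. Group levels moved by over 1 SD for 11 of 32 member and group pairs per spike-in UMI, for 2 with TMM scaling and for 2 without the 4 libraries set apart. Deviations of same-numbered libraries from their group means had a median r of 0.006 (−0.42 to 0.40 over 27 pairs, 11 of them over 0.1). For libraries with different numbers the median was −0.006 (−0.40 to 0.56 over 108 pairs, 28 of them over 0.1). The study's methods do not mention the numbers, and they were not taken to pair the rats. With a replicate block, 0 members were called in all 6 comparisons, and edgeR called 22 miRNAs for sTBI and naive rats, 13 for sTBI and sham rats, 19 for sTBI and mTBI rats, 15 for mTBI and naive rats, 1 for mTBI and sham rats and 11 for sham and naive rats, in place of 35, 15, 23, 17, 1 and 17. In the same order, DESeq2 called 68, 20, 33, 17, 5 and 43, spike-in totals gave 15, 14, 14, 15, 1 and 11, total miRNA UMIs 35, 8, 19, 10, 1 and 20, and the libraries without the 4 set apart 11, 18, 10, 3, 1 and 0. Read counts gave 21 for sTBI and naive rats, and fits of 2 groups 7 for sham and naive rats and 2 for mTBI and sham rats.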

Other observations

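Ratios between members that enter no test of the report were read in each library, with no test, and the first of them was chosen after its values were seen. The UMI ratio of miR-223-3p to miR-142-3p was 4.1, 3.45, 3.76, 3.76 and 4.8 in the sTBI rats and 3.99, 3.24, 3.03, 3.6 and 3.46 in the mTBI rats. It was 3.58, 3.6, 4.26, 3.54 and 5.49 in the sham rats and 2.15, 3.35, 1.75 and 2.92 in the naive rats. All sTBI and sham rats stood above all naive rats, and the mTBI rats overlapped them. The 2 lowest ratios were those of naive 1 and naive 3, which belong to the libraries set apart, and the other 2 naive rats, at 3.35 and 2.92, were still below every sTBI and sham rat.

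The ratio of miR-150-5p to miR-342-3p held within 2.13 to 2.93 over all 19 libraries, with a coefficient of variation of 9.04%, while the coefficients of variation in CPM were 36.9% for miR-150-5p and 35.1% for miR-342-3p. The ratio of miR-150-5p to miR-142-3p ran between 1.14 in naive 3 and 6.57 in sham 5, a coefficient of variation of 36.9%.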
